A study of Mus musculus with 2 samples.

Results

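The expression of 10 transcription factors of the lung epithelium was compared between wildtype lungs and lungs homozygous for a hypomorphic Mycn allele. The genes were Nkx2-1, Foxa1, Foxa2, Foxp1, Foxp2, Foxp4, Gata6, Cebpa, Id2 and Klf5. Members were taken by name: every probe set whose annotation gives 1 of these symbols and no other gene was used, which gave 30 probe sets out of 34945 that name a single gene. All 10 genes were measured, out of 12600 measured genes among 18193 in all. A gene was called measured where its signal, averaged over both arrays, reached a floor of 49.3, the 40th percentile of all signals.

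Whole lungs of mouse embryos at embryonic day 18 gave the RNA, which was measured on Affymetrix arrays, with 1 array for wildtype lungs and 1 for Nmyc9a homozygotes. Both groups came from pooled lungs of the same age, and the labels name no further allele or agent. The size of each pool and the sex and strain of the embryos are not stated in the labels. With 1 array per group there is no replicate check and no p-value, and the number of arrays limits the precision.

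Transcription factors of this set specify the lung endoderm, pattern its branching tips and then switch on the products of mature airway and alveolar cells. Nkx2-1 marks the lung and thyroid fields, and the forkhead factors Foxa1 and Foxa2 open chromatin at endodermal genes. Foxp1, Foxp2 and Foxp4 are forkhead repressors that pair with one another, and Gata6, Cebpa and Klf5 act in epithelial maturation before birth. Id2 binds no DNA: it holds back basic helix-loop-helix factors and marks the distal tip, where N-Myc also acts.

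Foxp2 was the one factor at least 1.5-fold apart between the arrays, and it was lower on the array labelled Nmyc9a. Among all measured genes 9.71% were lower and 6.32% higher by that size, so 1 of 10 is near the background. The brightest probe sets of the other 9 factors differed from wildtype by 1.15-fold at most, in Foxa2. For Foxp1, Foxp4, Gata6 and Klf5, a dimmer probe set of the same gene did pass 1.5-fold, upward in each case. Of all measured probe sets with 1 named gene, 9.31% were higher by that size. Known lung targets of these factors, such as Sftpb and Sftpc, had nearly equal signals, while Sftpd and Aqp5 were lower.

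The Mycn signal cannot check the labels. The brightest Mycn probe set read 66.3 in wildtype and 84.8 on the other array, near the floor, and its place relative to the altered sequence is unknown here. The second array is therefore called the array labelled Nmyc9a. Its signals were multiplied by 0.977, which set the median log2 ratio of probe sets with a mean signal at or above the floor to 0. All log2 ratios below are the array labelled Nmyc9a over wildtype, and values under the floor were raised to it before a ratio was taken. Error can be judged only from how far probe sets of a gene differ, with a pooled SD in log2 ratio of 0.40 over 5671 genes. In bulk RNA such as this, fewer cells of a type and less RNA per cell cannot be told apart.

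Promoter sequences were available for 7 of the 10 genes, with 11 start sites, from RefSeq on GRCm38.p6; each spans 250 bases before the gene's start and 50 after it. A set of 4 short motifs was searched as exact letters on both strands. CACGTG, the E-box that Myc and Max bind, was found in 0 of the 11, against 7.15% of all 32851 promoters of this length. TGTTTAC, a forkhead motif, was found in 1, upstream of Foxa1 (3.65% of all promoters hold it). Foxp2, Gata6 and Klf5 had no entry.

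The motif of zinc finger factors such as Gata6, searched as AGATAA, was found in 1 of the 11, against 11.2% of all promoters. CTCAAG, a core of Nkx2-1 sites, was also found in 1 (15.9% of all hold it). Both lay upstream of the same Foxa2 start and overlapped each other. The windows around these matches are shown because forkhead, Gata and Nkx2-1 proteins are themselves members of this set. They are written 5′ to 3′ on the gene's strand, with the matched letters in capitals; the Foxa1 match and the Nkx2-1 core lie on the opposite strand.
Foxa1, chr12:57546235-57546264, minus strand: ttatactgctttGTAAACAaagtgagggcc
Foxa2, chr2:148045632-148045661, minus strand: cactgttagcCTTGAGATAAtattaacttt
A match describes letters only and is not a bound site.

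**Figure D1:**
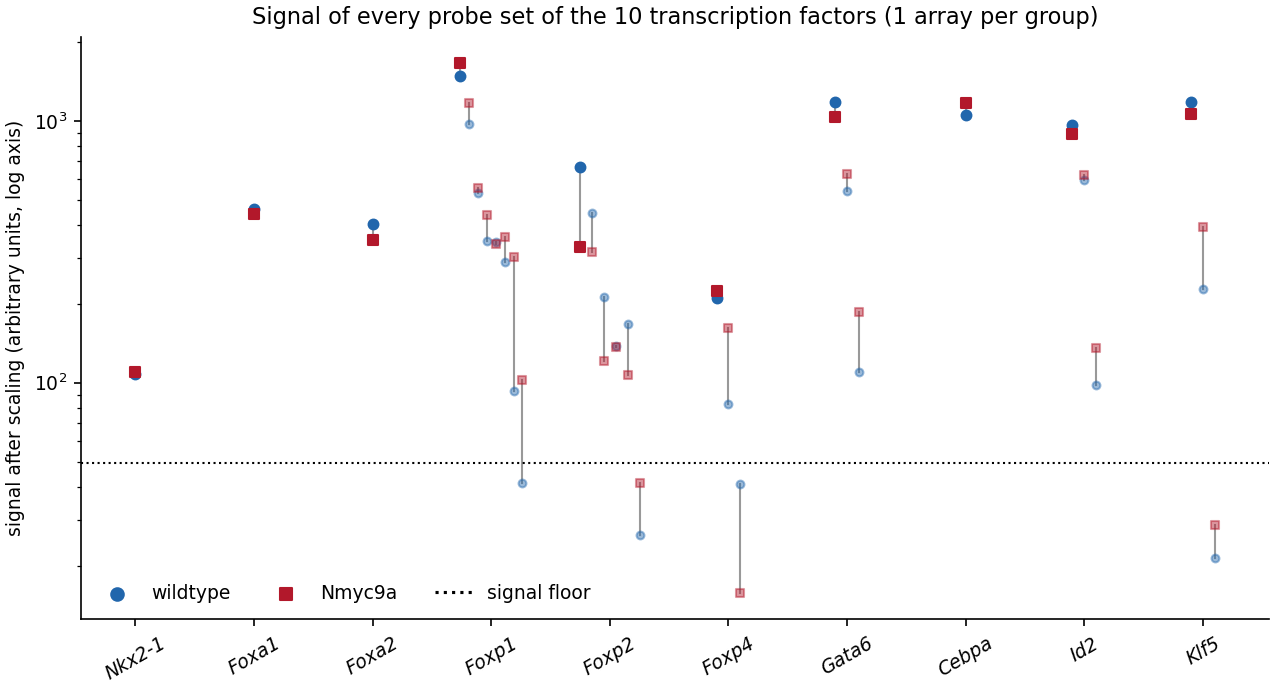
Signal of all 30 probe sets after scaling, on a log axis in arbitrary units, with blue circles for the wildtype array and red squares for the array labelled Nmyc9a joined by a line for each probe set. Full-colour points are the brightest probe set of each gene, pale points are the others, and the dotted line is the floor of 49.3; the longest line among the full-colour points is that of Foxp2, 667 and 331.

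Counted over genes by their brightest probe set, 1 of the 10 factors was at least 1.5-fold lower and 0 were at least 1.5-fold higher. Among all measured genes 9.71% were lower and 6.32% higher by that size, so these counts are near the background. At 2-fold the counts were again 1 and 0, where 1.38% of all genes were lower and 1.29% higher. At a log2 ratio of 0.32 either way they were still 1 and 0, where 27.3% were lower and 16% higher. The median log2 ratio of the 10 was -0.09, as was that of all measured genes. After quantile normalization the medians were 0.05 for the 10 and -0.10 for all genes, and after loess on mean signal 0.08 and -0.07. Centred on pan-epithelial markers both were 0.13. Single factors ran from -1.01 for Foxp2 to 0.17 for Foxp1. Foxp2 lay 2.51 pooled SDs between probe sets from 0, and the other 9 lay between 0.07 and 0.51 of that SD from 0. These figures give size only, because that SD holds no variation between arrays.

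Nkx2-1, the homeodomain factor that defines the lung field and drives surfactant and secretoglobin genes, had 1 probe set. It read 108 in wildtype and 109.9 on the array labelled Nmyc9a, and the log2 ratio was 0.03. The arrays were thus all but level for this gene, and 61.3% of measured genes stood lower in ratio. After quantile normalization the ratio was -0.11 and after loess -0.07, so it has no stable sign.

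Foxa1 and Foxa2, the pioneer forkhead factors of the endoderm, also had 1 probe set each. Foxa1 read 463 and 442, a log2 ratio of -0.07. Foxa2 read 405 and 351, a log2 ratio of -0.21. Both differences were smaller than the SD between probe sets, and neither sign held throughout. Foxa1 stood at 0.04 after quantile normalization, 0.08 after loess and 0.15 when centred on pan-epithelial markers, and Foxa2 at 0.01 with that centring.

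Foxp2, a forkhead repressor of the distal epithelium, had 6 probe sets, of which 5 were measured. The brightest, 1438232_at, read 667 in wildtype and 331 on the array labelled Nmyc9a, 2.02-fold lower. Probe set 1438231_at read 446 and 317, a log2 ratio of -0.49. Probe set 1440108_at read 213 and 121, a log2 ratio of -0.81. All of these were lower on the array labelled Nmyc9a, and the next is the exception in size. Probe set 1458191_at read 138 and 137, a log2 ratio of -0.01. Probe set 1422014_at read 168 and 107, a log2 ratio of -0.65. The last, 1441365_at, read 26.1 and 41.2, below the floor on both arrays, and gives no ratio.

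Across those 5 measured probe sets the mean log2 ratio was -0.60 ± 0.38 (SD, n = 5 probe sets of the same 2 arrays). All 5 were below 0 with the scaling used here. Probe set 1458191_at had no stable sign, as it read 138.4 and 140.4 as deposited. By its brightest probe set Foxp2 stood lower than all but 161 (1.28%) of the 12600 measured genes. The ratio stayed between -1.01 and -0.65 over 11 ways of processing and was past 1.5-fold in all 11. Moving or removing the floor left it at -1.01, as did leaving out probe sets with the suffix _x_at, _s_at or _a_at. Those changes could not act on this bright probe set, so they are no check on it. The smallest size came from the median of its probe sets. Centred on pan-epithelial markers, Foxp2 stood at -0.79.

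Foxp1, the most widely expressed gene of this repressor family, had 8 probe sets, all measured. The brightest, 1455242_at, read 1481 and 1661, a log2 ratio of 0.17. Of the 5 next brightest, 1435222_at read 973 and 1171, 1421140_a_at read 532 and 555, and 1421142_s_at read 347 and 436. Then 1421141_a_at read 344.5 and 339.6, and 1435221_at read 288 and 361. These 6 probe sets ran from -0.02 to 0.33 in log2 ratio, all within the SD between probe sets. The dimmest pair stood apart. Probe set 1443258_at read 92.6 and 302, 3.26-fold higher on the array labelled Nmyc9a. Probe set 1438802_at read 41.3, below the floor, and 102, at least 2.08-fold higher. The 8 probe sets had a mean of 0.49 ± 0.59 (SD, n = 8 probe sets of the same arrays) and a median of 0.30. The annotation used here does not say which part of the transcript each probe set reads.

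Foxp4, the remaining lung member of the family, had 2 measured probe sets that disagreed in size. Its brightest, 1429719_at, read 211 and 223, a log2 ratio of 0.08. The other, 1431437_at, read 83 and 162, 1.95-fold higher on the array labelled Nmyc9a. The last, 1431088_at, read 41.2 and 15.7, below the floor on both. Within the Foxp family, after scaling, all 5 measured probe sets of Foxp2 stood below 0, against 1 of 8 for Foxp1 and 0 of 2 for Foxp4. As deposited, Foxp2 probe set 1458191_at (138.4 and 140.4) and that Foxp1 probe set, 1421141_a_at (344.5 and 347.6), stood above 0. The difference between the genes has no test, because all probe sets share the same arrays.

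**Figure D2:**
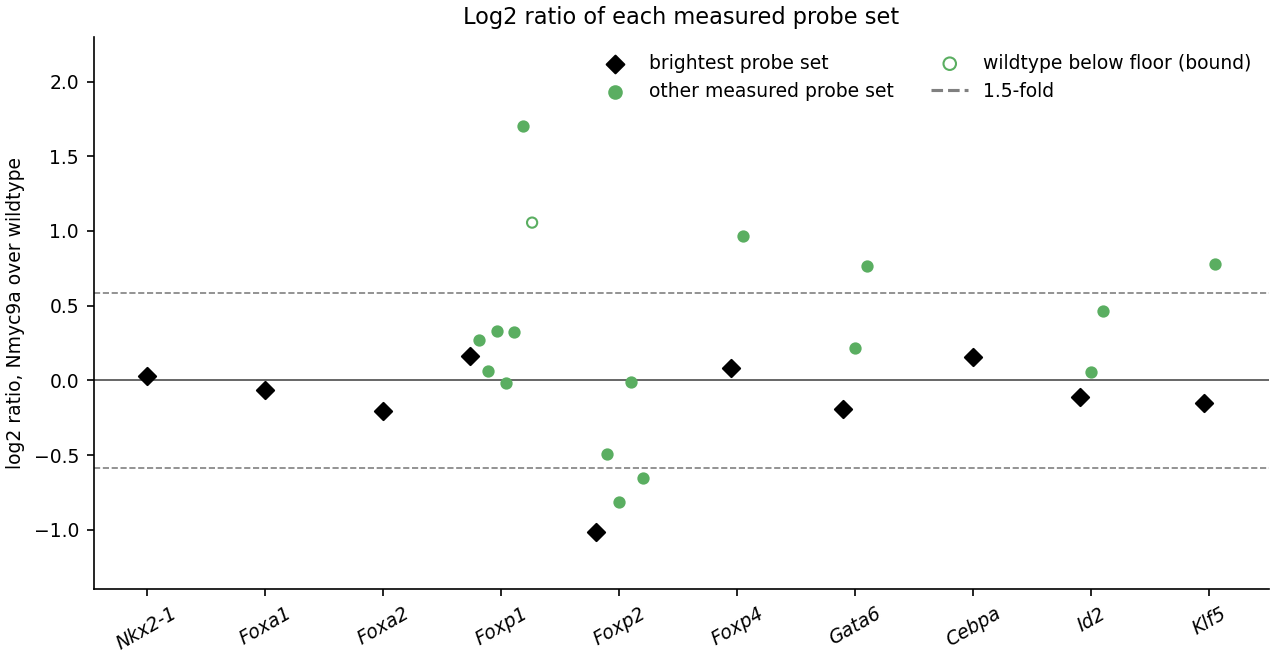
Log2 ratio (array labelled Nmyc9a over wildtype) of each of the 27 measured probe sets, by gene; black diamonds are the brightest probe set, green circles the others, the open circle a bound with wildtype below the floor, and dashed lines 1.5-fold. With the scaling used here all 5 points of Foxp2 lie below 0, the nearest at -0.01, as do the single points of Foxa1 and Foxa2. The points above the upper dashed line belong to dimmer probe sets of Foxp1, Foxp4, Gata6 and Klf5.

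Gata6, a zinc finger factor needed for branching and for type 2 cell maturation, had 3 measured probe sets that spread on both sides of 0. The brightest, 1425464_at, read 1179.8 and 1031, a log2 ratio of -0.19. The next, 1425463_at, read 539.7 and 627, a log2 ratio of 0.22. The dimmest, 1443081_at, read 109.8 and 186, 1.70-fold higher on the array labelled Nmyc9a. Their mean was 0.26 ± 0.48 (SD, n = 3 probe sets), so the gene has no settled direction.

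Cebpa, a leucine zipper factor of type 2 cell maturation that liver and myeloid cells also use, had 1 probe set. It read 1055 and 1175, a log2 ratio of 0.15. That ratio was above 0 in all 11 ways of processing, from 0.15 to 0.38, and below the SD between probe sets in each.

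Klf5, a zinc finger factor of perinatal lung maturation, had 2 measured probe sets of opposite sign. The brightest, 1451021_a_at, read 1179 and 1059, a log2 ratio of -0.15. The other, 1451739_at, read 229 and 393, 1.72-fold higher on the array labelled Nmyc9a. The last, 1430255_at, read 21.4 and 28.7, below the floor. Leaving out every probe set with the suffix _x_at, _s_at or _a_at, which can read several transcripts, put Klf5 at 0.78 and made it a factor at least 1.5-fold higher.

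Id2, the helix-loop-helix inhibitor of the distal tip, had 3 measured probe sets. The brightest, 1435176_a_at, read 966 and 894, a log2 ratio of -0.11. The second, 1422537_a_at, read 594 and 619, a log2 ratio of 0.06. The dimmest, 1453596_at, read 98.2 and 135, a log2 ratio of 0.46. None was 1.5-fold apart, and their mean was 0.14 ± 0.30 (SD, n = 3 probe sets).

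Over all members, 27 of the 30 probe sets were measured, 16 above 0 and 11 below. Of these, 5 were at least 1.5-fold higher, where 9.31% of all 22457 measured probe sets with 1 named gene were. A further 3 were at least 1.5-fold lower, all of Foxp2, where 9.24% of all were. The higher probe sets are those of Foxp1 (2 of them), Foxp4, Gata6 and Klf5 named above, and none of them is its gene's brightest. The dimmest of Foxp1, 1438802_at, counted as measured only through the array labelled Nmyc9a.

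In all 6 factors with at least 2 measured probe sets, the dimmest had a higher ratio than the brightest. The gap ran from 0.36 for Foxp2 to 0.96 for Gata6, with a median of 0.89. Of all 5671 genes with at least 2 measured probe sets, 60.8% showed that order, with a median gap of 0.12. Of these genes, 68.6% had a smaller gap than Foxp2 and 80.3% than Id2. For Foxp4, Foxp1, Klf5 and Gata6 that share was between 90.7% and 92.3%. After loess the same order held for 6 of 6 factors and 48.3% of all genes, and after quantile normalization for 6 of 6 and 49.2%. This comparison was chosen after the values were seen and has no test. The Foxp1 gap of 0.89 uses a wildtype value raised to the floor, in a probe set that counted as measured only through the array labelled Nmyc9a.

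**Figure D3:**
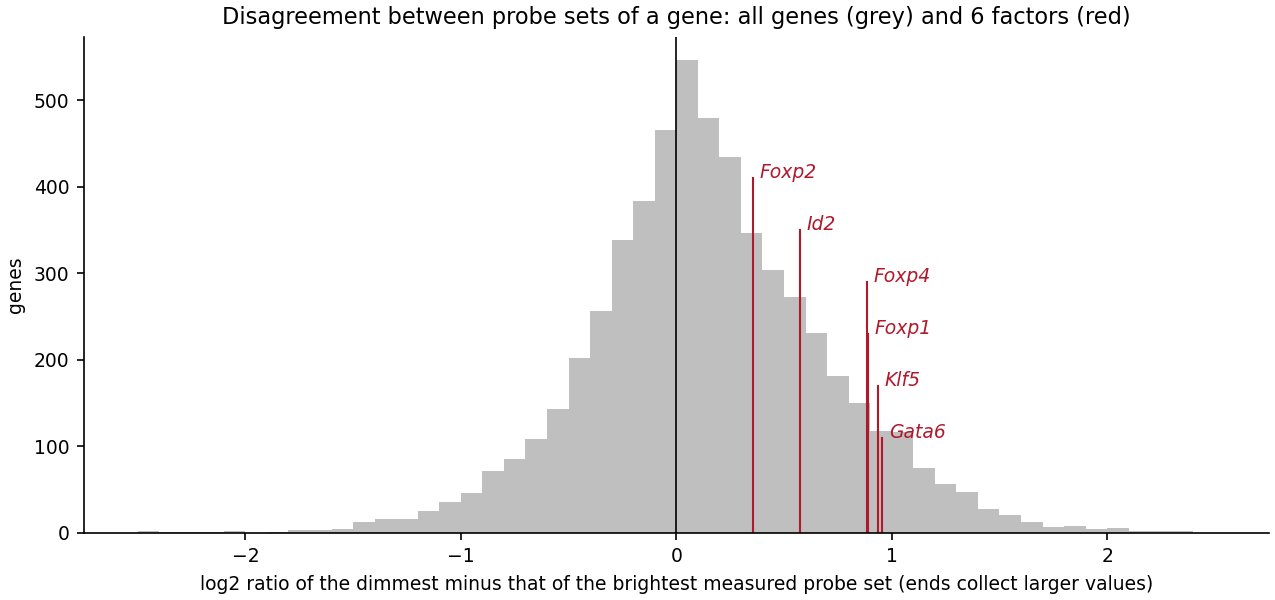
Number of genes by the log2 ratio of the dimmest minus that of the brightest measured probe set, for all 5671 genes with at least 2 (grey bars), with the 6 factors marked by red lines whose heights only separate the names. All 6 lines lie right of 0, from 0.36 to 0.96, while 60.8% of all genes do.

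Relatives of the factors in the same gene families were mostly level between the arrays. Of 22 measured relatives, 1 was at least 1.5-fold higher, 0 were lower, and the median log2 ratio was -0.01. Other scalings put that median between 0.02 (as deposited) and 0.20 (centred on pan-epithelial markers), and quantile normalization or loess gave 2 lower relatives. The higher count was 2 as deposited or after quantile normalization, 3 after loess and 5 with that centring. Nkx2-3, a homeobox gene of gut and spleen mesenchyme, read 93.1 and 158 (1.69-fold higher). Gata2, a factor of endothelial and blood cells, read 301 and 445, a log2 ratio of 0.57. At the lower end Gata5 read 149 and 101, a log2 ratio of -0.56. Nkx2-6 read 109 and 76.4, a log2 ratio of -0.51. Among the other Id genes, Id1 stood at -0.45, Id3 at -0.06 and Id4 at -0.52, beside -0.11 for Id2. Foxa3 and Foxp3, the family members not typical of lung epithelium, lay below the floor on both arrays.

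Binding partners and cofactors had a median of 0.12, where that of all measured genes was -0.09. Of the 22 measured, 13 were above 0, where 5194 of all 12600 were. The difference has no test. By at least 1.5-fold, 1 was higher and 1 lower, and the median was above 0 in every setting. The higher count was 0 with a pseudocount or the median of probe sets, and 3 without x, s and a probe sets or with centring on pan-epithelial markers. The lower count was 0 with that centring or the floor at the 60th percentile. The pair past that size were both cofactors of Gata proteins: Zfpm1 read 126 and 189.7 (1.51-fold higher), and Zfpm2 read 145 and 87.1 (1.67-fold lower). The measured probe sets of Zfpm1 were split, 1 above 0 and 1 below. The acetyltransferase gene Crebbp stood at 0.49, with 2 of its 3 measured probe sets below 0, and Hdac1, a deacetylase of the complex that Foxp repressors recruit, at -0.48. Of the E proteins that Id2 binds, Tcf3 stood at 0.15, Tcf4 at -0.10 and Tcf12 at -0.21, all within the SD between probe sets.

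Other transcription factors of lung epithelium gave 1 of 21 measured genes at least 1.5-fold higher and 1 lower, with a median of -0.01 that was above 0 under every other scaling (0.03 to 0.21). Foxj1, which runs the motile cilia programme, read 141 and 230 (1.63-fold higher). Sox11 read 573 and 179 (3.21-fold lower) by its brightest probe set, but 2 of its 6 measured probe sets stood above 0. The lower count was 0 with the median of probe sets or when x, s and a probe sets were left out. Ehf, an epithelial Ets factor near the floor, stood at 0.46, and Nr3c1, the glucocorticoid receptor, at -0.38. The tip and airway regulators Sox9 and Sox2 stood at -0.11 and -0.02.

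Known lung targets of Nkx2-1, Foxa, Gata6 and Cebpa included 18 measured genes, of which 2 were lower and 0 higher by at least 1.5-fold. The median stood at -0.02 and was above 0 under every other scaling (0.01 to 0.20). Sftpd, surfactant protein D, read 4595 and 2589 (1.78-fold lower), and Aqp5, the water channel of type 1 and gland cells, read 449 and 275 (1.63-fold lower). Centred on pan-epithelial markers, 1 target was lower in place of 2. Sftpb read 5203 and 5201 and Sftpc 8639 and 8964, both level. Scgb1a1, the club cell secretoglobin, stood highest at 0.54 (3388 and 4914) and passed 1.5-fold after quantile normalization, loess or centring, with Muc1 at 0.14 and Abca3 at 0.16. Of 6 genes described as controlled by Foxp factors, 3 were measured, and all 3 are also in the target list above. Of these, 0 passed 1.5-fold in either direction: Scgb1a1 at 0.54, Sftpc at 0.05 and Pdpn, a type 1 cell protein, at -0.45. The goblet cell genes Agr2, Muc5ac and Spdef lay below the floor on both arrays.

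**Figure D4:**
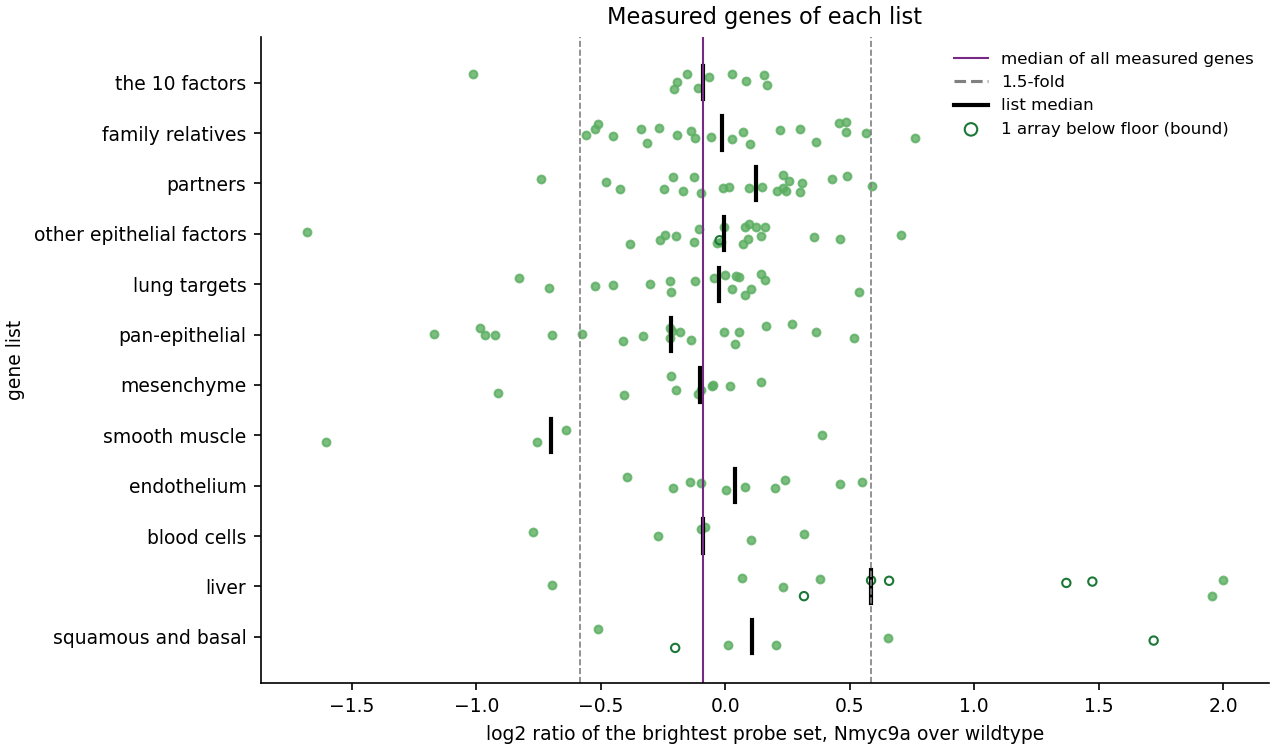
Log2 ratio (array labelled Nmyc9a over wildtype) of the brightest probe set of each measured gene, by gene list; black bars are list medians, the purple line the median of all measured genes at -0.09, dashed lines 1.5-fold and open circles bounds with 1 array below the floor. The point far left among the 10 factors is Foxp2, and the liver and smooth muscle medians, 0.59 and -0.70, lie farthest from the purple line.

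The tissue label held against markers: Sftpc had the values above, and Tcf21, a lung mesenchyme factor, read 4181 and 4029. Of 20 measured pan-epithelial markers, 5 were at least 1.5-fold lower and 0 higher, with a median of -0.22 and a summed signal of 14411 in wildtype and 11567 on the other array. The lower ones were the keratins Krt19 (-1.17), Krt7 (-0.99) and Krt8 (-0.93), the claudin Cldn6 (-0.96) and the protease Prss8 (-0.70). Epcam stood at 0.52 and Dsp at 0.37, but 1 of 2 measured probe sets of Epcam and 2 of 3 of Dsp were below 0. Foxp2 was lower than the median of these markers and within their range, and their part in its ratio was not tested. The centring above multiplies the whole array labelled Nmyc9a by 1 factor, so it cannot test that part. That centring moved the median of all measured genes by more than any other scaling, from -0.09 to 0.13. It left 78.3% of the genes past 1.5-fold on the higher side, where 39.4% were before.

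Liver uses Foxa1, Foxa2 and Cebpa too, and liver transcripts moved between the arrays. Of 11 measured liver markers, 6 were at least 1.5-fold higher and 1 lower (4 and 1 after quantile normalization or loess). Their summed signal was 832 in wildtype and 1660 on the array labelled Nmyc9a. Alb read 139.5 and 558, Afp 63.9 and 248, while Apoa1, Ttr, Fga, Fgg and Hpx were below the floor on the wildtype array. Those below it counted as measured only through the array labelled Nmyc9a, so the count and the sum favour that array. Hnf4a, the defining liver factor, read 60 and 62.8, and Rbp4 stood at -0.70. A further 4 liver markers lay below the floor by their mean signal. No liver marker had a signal of 0 on either array, and their part in the Cebpa, Foxa1 and Foxa2 ratios was not tested.

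Squamous and basal epithelium, another source of Foxa1 and Klf5 transcripts, had 6 measured markers, 2 at least 1.5-fold higher and 0 lower. Krt4, a keratin of oesophagus, read 24.6, below the floor, and 162 (at least 3.30-fold higher), and Krt6a stood at 0.65. Krt4 counted as measured only through the array labelled Nmyc9a. Quantile normalization or loess gave 1 higher and 1 lower, and 0 were higher with the floor at the 60th percentile or without x, s and a probe sets. Krt14 stood at -0.20 or lower and Krt15 at -0.51. The summed signal was 465 and 605, and the part of these markers in the Klf5 and Foxa1 ratios was not tested. Thyroid, another Nkx2-1 tissue, had 2 measured markers, Pax8 at 0.11 and Hhex at -0.17. Their summed signal was 441 and 408, most of it from Hhex (358 and 319). Tg, its defining product, read 54.5 and 29.5, below the floor by its mean signal, so it was not measured. Tshr and Slc5a5 were also below the floor by that mean.

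Among cell types that share Gata6, Foxp1 or Id2 with the epithelium, smooth muscle differed most. Of 4 measured smooth muscle markers, 3 were at least 1.5-fold lower and 0 higher, with summed signals of 3906 and 2354. Quantile normalization, loess or centring on pan-epithelial markers each left 1 lower. Myh11 stood at -1.61, Acta2 at -0.76, Tagln at -0.64 and Des at 0.39, and their part in the Gata6 ratios was not tested. Of 10 mesenchyme markers 1 was lower, Wnt2 at -0.92, and 0 were higher, with Pdgfra at -0.41, Tbx4 at 0.02 and Col1a1 at 0.14. Of 10 endothelial markers 0 were past 1.5-fold in either direction, with Flt1 at 0.55, Vwf at 0.46, Tek at -0.21 and Emcn at -0.39. Of 6 blood cell markers 1 was lower, Slc4a1 at -0.77, and 0 were higher, with Csf1r at -0.27, Hbb-y at 0.10 and Lyz2 at 0.32.

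**Figure D5:**
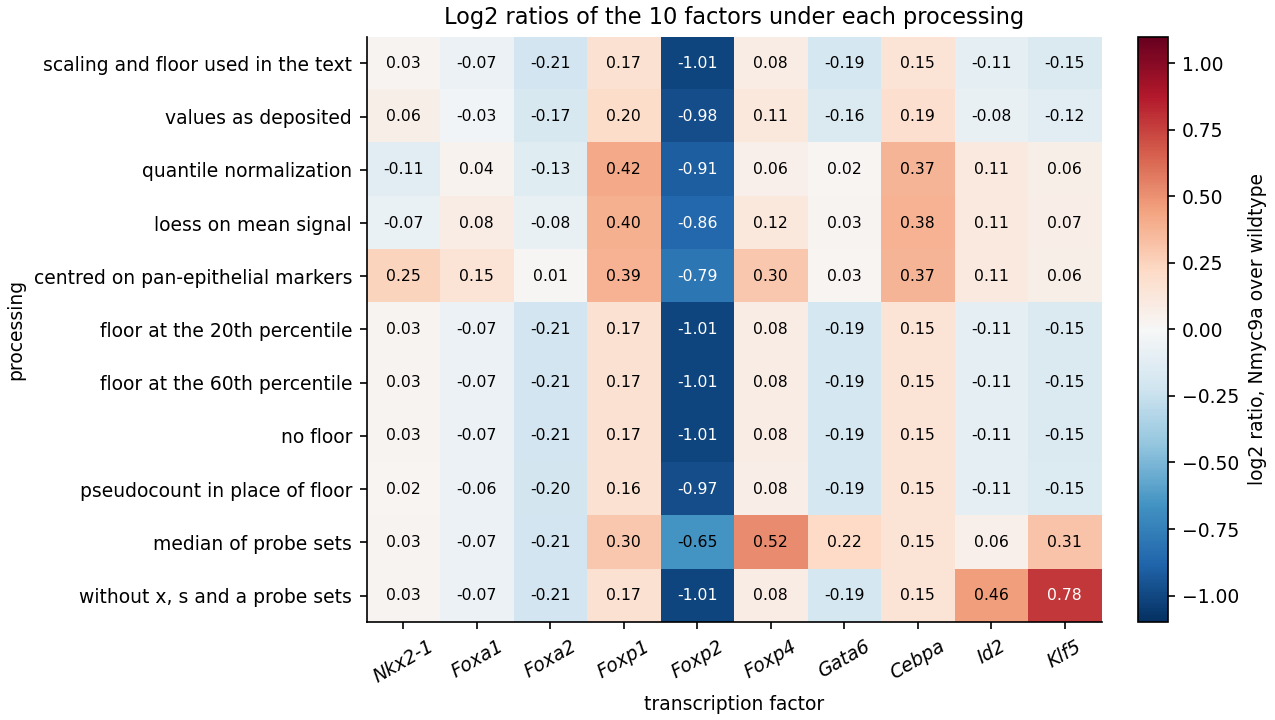
Log2 ratio (array labelled Nmyc9a over wildtype) of each factor under the processing used in the text (top row) and 10 alternatives, with blue below 0 and red above. The Foxp2 column is below 0 in every row, from -1.01 to -0.65, Foxp1, Foxp4 and Cebpa are above 0 in every row, and the other 6 columns hold both signs.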

How the data were processed

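The authors deposited a linear signal intensity per probe set for each array, and the labels and the file state neither their software nor its scaling. Trizol, then an RNeasy kit, gave the RNA, which was biotin-labelled for Affymetrix arrays, per the labels. Of 45101 probe sets, 64 controls were left out. Gene names came from the platform's annotation table (34945 with 1 symbol, 932 with several, 9160 with none) and updated through Entrez identifiers to GRCm38.p6, which matched 34741. Each gene took the probe set with the highest mean signal. Genes were counted at 1.5-fold, with no test. Named genes were all members, the 2 highest and 2 lowest of each list, every gene past 1.5-fold among relatives, partners and other epithelial factors, and a few more chosen after their values were seen. Members and lists were chosen with earlier results of these data known. Computation used Python 3.11.15, numpy 2.4.6, pandas 2.3.3 and statsmodels 0.14.6, and was tested on simulated data. A loess span of 0.3 was used. Alternatives changed the scaling, the floor, the probe sets and the size rule.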

Additional observations from a re-analysis of the deposited data

How the results depend on the processing

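The count of factors at least 1.5-fold lower was 1, Foxp2, under all 10 alternatives in scaling, floor and probe sets, and also at 2-fold and at a log2 ratio of 0.32. At 1.5-fold, the share of all measured genes that were lower ran from 3.74% (centred on pan-epithelial markers) to 11.7% (floor at the 20th percentile). The share higher ran from 3.79% (floor at the 60th percentile) to 13.5% (with that centring). A lower count of 1 in 10 is thus near the background in most settings. Moving or removing the floor, or leaving out x, s and a probe sets, could not change the Foxp2 ratio. The count at least 1.5-fold higher was 0 except without x, s and a probe sets, where it was 1 (Klf5); there the brightest probe set of Klf5 is left out by construction. The median of the 10 factors ran from -0.09 to 0.13. Taking each gene's median over its probe sets, Foxp4 stood at 0.52, Gata6 at 0.22 and Klf5 at 0.31, each more than 1 pooled SD from the value in the text, and so did Id2 (0.46) once x, s and a probe sets were left out. Nkx2-1, Foxa1, Foxa2 and Cebpa have 1 probe set each, so no other reading of the gene. No paired analysis was possible because each group has 1 array. Signals near the floor limit the dim probe sets, among them the dimmest of Foxp1, whose wildtype value lay below it.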
